A study of Mus musculus with 5 samples.

Results

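The immediate-early genes described here are Egr1, Egr2, Egr3, Ier2, Ier3, Ier5, Dusp1, Nr4a1, Btg2 and Srf, 10 of the 52550 genes counted by 3′ RNA sequencing (QuantSeq) in mouse KL cells. They were chosen by symbol, as well-known immediate-early genes outside the AP-1 family of Fos and Jun. KL cells are Lin-cKit+Sca1- bone marrow cells, the sorted fraction that holds committed myeloid progenitors. The 3 BcorΔE9-10 libraries came from male mice labelled scl-Cre-ERT +; Bcorfl/y, in which Cre removes exons 9 and 10 of the X-linked corepressor gene Bcor and leaves a truncated protein. The 2 BcorWT libraries came from male mice labelled scl-Cre-ERT +; Bcorwt/y, with an intact gene. By these labels both groups carried the Cre, driven from a stem cell element of Tal1 (also called Scl), although the study's text also describes control littermates that carried the floxed allele alone. Both received tamoxifen at 1 mg per day for 5 days at 3 to 6 months of age. KL cells were sorted 20 weeks later, whereas the driver is known for its activity in stem cells, from which KL cells descend. Pooling of mice is not described, and which of the sorters served each library is not given in the sources used here.

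Immediate-early genes are transcribed within minutes of a signal because the factors that switch them on are already in the cell. The MAP kinase ERK acts on ELK factors that sit beside SRF at a site named the CArG box, and kinases that phosphorylate CREB act at the cyclic AMP response element (CRE). Most of the messages are short-lived, and several of the proteins then shut the signal off. In bone marrow the same genes respond to cytokines and adhesion, and they are also known to respond to tissue dissociation and cell sorting. The comparison asked whether a higher level of Fos in BcorΔE9-10 KL cells came with a general immediate-early pattern, so Fos is the reference gene.

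Promoter sequences are shown first, because the sites at which SRF and CREB act on this class can be looked for in them by letter. RefSeq promoters (GRCm38.p6, 250 bases before to 50 after the start) were matched for 7 of the 10 members, with none for Egr1, Egr3 and Ier2. They were searched on both strands for the CArG box, the CRE TGACGTCA, its core TGACG (which lies inside every CRE and is then counted again), an EGR motif GCGTGGGCG and an AP-1 motif TGANTCA. A stretch is printed for 4 members, chosen for the repeated or full motifs in it. Other matches, those of Egr2 and Fos among them, are not shown. Each is written 5′ to 3′ on the strand of the gene, with the CArG boxes of Srf, the CRE of Dusp1 and Btg2 and the cores of Nr4a1 in capitals. Srf lies on the minus strand of chromosome 17 (chr17:46556203-46556256), Dusp1 on the same chromosome and strand (chr17:26508596-26508627), Btg2 on the minus strand (chr1:134079302-134079333) and Nr4a1 on the plus strand (chr15:101266601-101266822).
Srf: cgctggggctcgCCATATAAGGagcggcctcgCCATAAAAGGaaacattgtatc
Dusp1: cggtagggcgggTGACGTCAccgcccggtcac
Btg2: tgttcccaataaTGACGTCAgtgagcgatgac
Nr4a1: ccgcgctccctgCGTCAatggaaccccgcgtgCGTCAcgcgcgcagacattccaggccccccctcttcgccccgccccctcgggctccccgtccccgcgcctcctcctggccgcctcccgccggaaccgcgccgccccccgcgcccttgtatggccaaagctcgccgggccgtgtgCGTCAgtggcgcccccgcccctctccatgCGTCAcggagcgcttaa

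Srf, which encodes the factor that binds the CArG box, held 2 such boxes between 94 and 41 bases before its start. Egr2 has 5 listed promoters that overlap in part, none with more than 1 box, and 2 different boxes occurred among them. At least 1 box was present in 1.63% of the 32851 promoters listed, and at least 2 in 0.0183%. A full CRE was found in 1.79% of promoters, among them those of Dusp1 and Btg2. Nr4a1 held 4 cores, written as their reverse complement in the printed strand, where 20.8% of promoters held at least 1 and 0.231% at least 4. Ier3 and Ier5 held none of the motifs, and no member promoter held the EGR motif (0.612% of promoters) or the AP-1 motif (7.81%). The listed Fos promoter held 2 cores and 0 CArG boxes or full CREs in this window. A match to these letters is a description of the sequence and not evidence of binding.

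The other shared control element is the AU-rich element, through which short-lived messages are degraded. The nonamer TTATTTATT occurred in the 3′ untranslated region of Dusp1 (2 copies), Srf (1 copy) and Fos (1 copy), against 7.87% of 10054 tested genes with an annotated region. The shorter word ATTTA was found in every member but Ier2, and in 69.2% of tested genes. One nonamer of each gene is shown in capitals within 29 bases (GRCm38).
Dusp1: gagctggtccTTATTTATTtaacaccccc
Srf: acggcaccacTTATTTATTgttgcctttt
Fos: tgttttcaatTTATTTATTaagatggatt

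Values are given as CPM, counts per 1e+06 counts after scaling of each library by its TMM factor, for BcorΔE9-10 libraries 1, 2 and 3 and then BcorWT libraries 1 and 2. Total counts ranged from 5998924 to 8303999, and a tested member held between 19 and 3210 counts. A gene was called when its adjusted p in limma was under 0.05. Of 11766 genes tested, 1189 (10.1%) were called, 708 (6.02%) of them higher and 481 (4.09%) lower in BcorΔE9-10 cells, and the groups did not overlap for 42.8%. The median log2 fold change over all tested genes was 0.0043. Bcor itself had 196, 168 and 185 counts against 83 and 109, a call of higher (log2 fold change 0.78, limma adjusted p = 0.0313) that was lost after GC correction (0.39, limma adjusted p = 0.279) and without any 1 of 4 libraries (limma adjusted p up to 0.272), all but BcorWT library 2. However, transcript ends lie outside the deleted exons and check nothing. All 10 KL progenitor markers were tested, from Mpo and Elane to Kit, while Ly6a, which encodes Sca-1, stayed at or below 1.14 CPM. Kit, on which the cells were sorted, was called higher in BcorΔE9-10 libraries (49.4 to 53.4 against 18.2 and 19.6 CPM, log2 fold change 1.43, limma adjusted p = 9.82e-05), while Spi1, a myeloid transcription factor of the same marker list, was called lower (log2 fold change -0.47, limma adjusted p = 0.0154), and the other 8 were not called.

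The number of members called depended on the fit. Of the 10, 8 passed the filter on low counts. Of these 8, 1 was called higher (Nr4a1) and 0 were called lower by limma, where 10.1% of all tested genes were called. At an unadjusted p under 0.05 there were 2 higher and 3 lower, where 25.3% of all tested genes passed in either direction. The log2 fold changes of the 8 ran from -0.58 to 1.47, with 4 above and 4 below zero and a median of -0.15. The groups did not overlap for 3 members, Nr4a1, Btg2 and Srf, and for 42.8% of all tested genes, so this count does not set the members apart. Added over all 10 members, the level was 1005, 886 and 797 CPM in the BcorΔE9-10 libraries and 1250 and 761 CPM in the BcorWT libraries, so that all 3 mutant libraries lay between the controls. With edgeR and with DESeq2, 2 members were called, Nr4a1 higher and Btg2 lower, where these tools called 11.2% and 10.9% of all genes. With no filter on low counts 3 of 10 were called (Dusp1 and Nr4a1 higher, Btg2 lower), where 6.65% of all genes were.

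**Figure D1:**
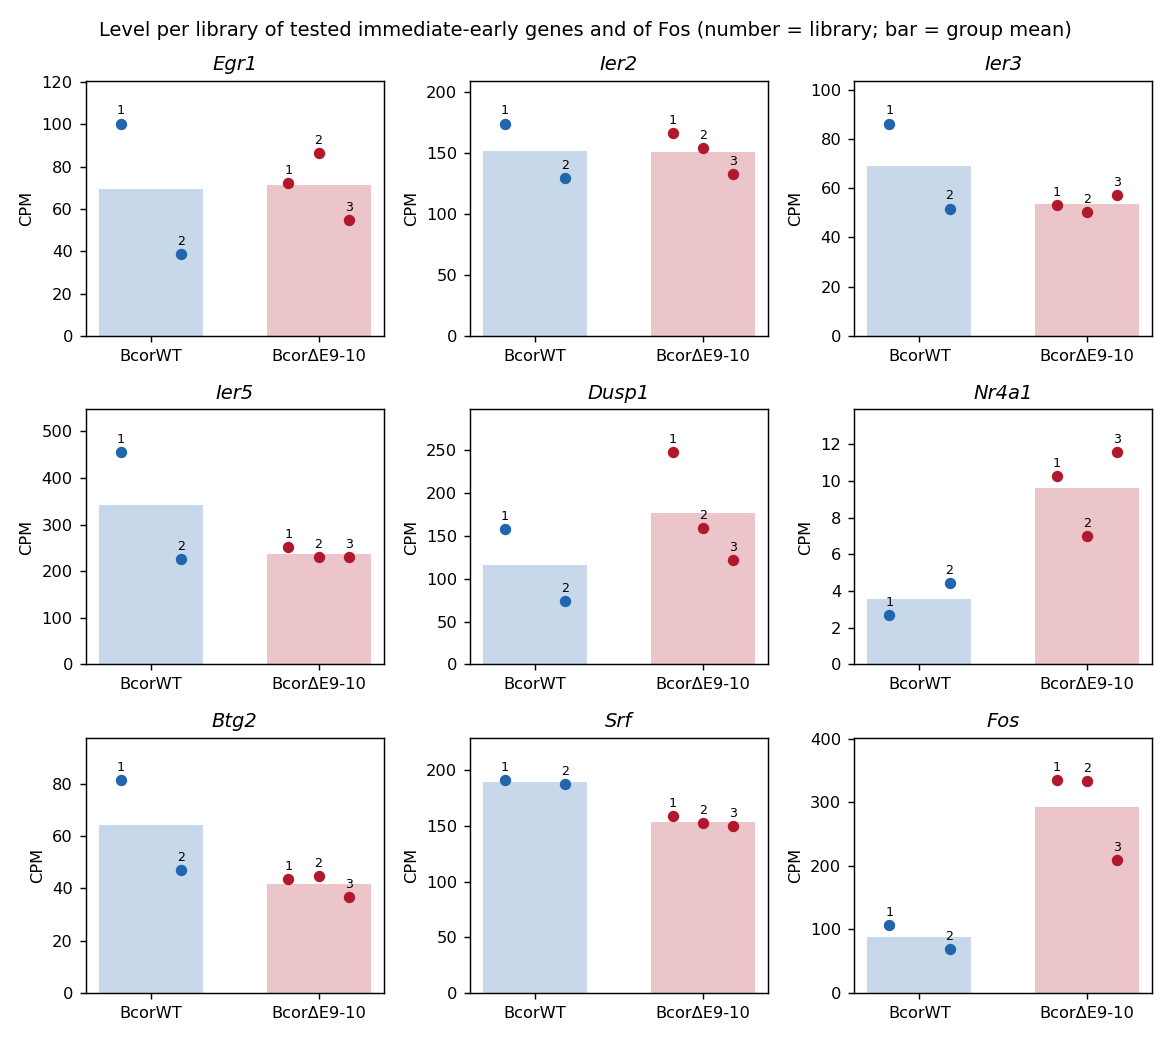
Level in CPM (vertical axis, linear from 0, scaled for each gene) of the 8 tested immediate-early genes and of Fos in each library; points are libraries with their number and bars are group means. BcorWT library 1 lay above BcorWT library 2 in 7 of the 8 members, and in Fos and Nr4a1 every BcorΔE9-10 library lay above both controls.

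The EGR proteins are zinc finger transcription factors that carry an immediate-early signal on to later genes, and Egr1 is known to restrain stem cell division. Egr1 (ENSMUSG00000038418) stood at 72.2, 86.6 and 54.8 CPM in BcorΔE9-10 libraries and at 100.4 and 38.7 CPM in BcorWT libraries. The controls were thus the highest and the lowest of the 5, and the group means were alike at 71.2 ± 15.9 (SD, n = 3) and 69.5 ± 43.6 CPM (SD, n = 2). The log2 fold change was 0.15 (SE 0.273, 95% interval -0.43 to 0.72, limma adjusted p = 0.786). Without BcorWT library 1 it was 0.83, and without BcorWT library 2 it was -0.53, so the direction of Egr1 depended on which control was used. These fits hold a lone control and cannot measure the spread between controls, so no p is given for them. After correction for GC content of transcript ends it was -0.13.

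Egr2 and Egr3 were close to the limit of detection. Egr2 (ENSMUSG00000037868) had 2, 0 and 7 counts in BcorΔE9-10 libraries and 7 and 0 in BcorWT libraries, and Egr3 (ENSMUSG00000033730) had 1, 2 and 3 counts against 0 and 0. A count of 0 in the BcorWT libraries allows a level of up to 0.426 and 0.445 CPM (3 counts), and 3 counts equal 0.351 to 0.490 CPM in the BcorΔE9-10 libraries. Egr3 was thus at or under 3 counts in every library, with no overlap between the groups, and no fold is given. Both genes were tested only in the fit with no filter on low counts, which called neither (Egr3 unadjusted p = 0.042, limma adjusted p = 0.245).

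The IER genes encode quickly induced proteins, of which Ier3 is best known in cell survival, and all 3 were higher in BcorWT library 1 than in any mutant library. Ier2 (ENSMUSG00000053560) stood at 166.4, 154.5 and 133.2 against 174.4 and 129.4 CPM. The controls lay on either side of the mutant libraries, with a log2 fold change of 0.0026 (SE 0.140, 95% interval -0.29 to 0.30, limma adjusted p = 0.994). Its sign turned under edgeR (-0.0052), DESeq2 (-0.022) and RLE scaling (-0.014), all close to zero.

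Ier3 (ENSMUSG00000003541) stood at 53.3, 50.3 and 57.1 against 86.2 and 51.7 CPM, a fold change of -0.32 on the log2 scale (SE 0.179), with a limma adjusted p of 0.284. Ier5 (ENSMUSG00000056708) stood at 251, 231 and 230 against 456 and 227 CPM, a fold change of -0.44 on the log2 scale (SE 0.192), with a limma adjusted p of 0.161. In both genes the 3 mutant libraries and BcorWT library 2 were close together and BcorWT library 1 stood above them. Without BcorWT library 2, Ier3 (-0.68, limma adjusted p = 0.00711) and Ier5 (-0.94, limma adjusted p = 2.31e-05) were called lower. Without BcorWT library 1 they were 0.048 and 0.058.

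Ier5 had the highest mean CPM of the members, and the tested genes were ranked by how closely they followed it across the 5 libraries. Among the 3795 genes whose log2 CPM averaged 5 or more, the smallest root mean square differences in centred log2 CPM were those of Slpi (0.106), Lsp1 (0.113), Adam8 (0.116), Rgs2 (0.124) and Lgals3 (0.126). Slpi, for example, stood at 233, 241 and 214 CPM against 382 and 199 CPM. Each of these 5 genes was highest in BcorWT library 1, like Ier5. The likeness rests on 5 libraries that share their depth and scaling, and it is given as a description.

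Dusp1 and Btg2 are brakes: Dusp1 encodes a phosphatase that switches off MAP kinases, and Btg2 an antiproliferative cofactor of messenger RNA decay. Dusp1 (ENSMUSG00000024190), whose promoter and AU-rich sites are printed above, stood at 248, 159 and 122 against 158 and 74.5 CPM. Its BcorΔE9-10 libraries spread by 2.03-fold and overlapped BcorWT library 1, with a log2 fold change of 0.64 (SE 0.268, 95% interval 0.070 to 1.20, limma adjusted p = 0.146). Without BcorWT library 1 it was at 1.17, and without BcorWT library 2 it was at 0.11. With no filter on low counts Dusp1 was called higher (0.64, limma adjusted p = 0.0476).

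Btg2 (ENSMUSG00000020423) stood at 43.7, 44.7 and 36.7 against 81.2 and 47.1 CPM. The groups did not overlap, but BcorWT library 2 lay just above the highest mutant library. The log2 fold change of -0.58 (SE 0.193, 95% interval -0.99 to -0.17) did not pass in limma (adjusted p = 0.0662) and passed in edgeR (adjusted p = 0.0489), in DESeq2 (adjusted p = 0.0323) and in limma with no filter on low counts (adjusted p = 0.0447). Without BcorWT library 2 it was -0.97, and without BcorWT library 1 it was -0.19. Dusp1 and Btg2, the members with a CRE among the promoters matched, thus had fold changes of opposite sign.

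Nr4a1 was the member that rose. It encodes an orphan nuclear receptor that acts without a known natural ligand and restrains myeloid growth, and the joint loss of Nr4a1 and Nr4a3 is known to cause myeloid leukaemia in mice. Nr4a1 (ENSMUSG00000023034, chr15:101266846-101274792, plus strand) had 87, 43 and 99 counts in BcorΔE9-10 libraries and 19 and 30 in BcorWT libraries. This was 10.3, 7.02 and 11.6 CPM against 2.70 and 4.45 CPM, with every mutant library above both controls. The log2 fold change was 1.47 (SE 0.394, 95% interval 0.64 to 2.30, limma adjusted p = 0.0255), a 2.77-fold rise.

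Nr4a1 was also the 1 tested member that was lower in BcorWT library 1 than in library 2, by 0.71 on the log2 scale. It was called in each of the fits that used all libraries (log2 fold change 1.23 to 1.61). The lowest values, 1.30 and 1.23, came from fits with a block for replicate number. There BcorΔE9-10 library 3 is alone in its block and does not inform the fold change. Nr4a1 was not called without BcorΔE9-10 library 1 (1.42, limma adjusted p = 0.0510) or without BcorΔE9-10 library 3 (1.31, limma adjusted p = 0.0828). Without BcorWT library 1 its log2 fold change was 1.10, and without BcorWT library 2 it was 1.82. Of the other NR4A receptors, Nr4a2 was at 2.48, 3.92 and 1.99 against 3.12 and 2.22 CPM (log2 fold change -0.04, limma adjusted p = 0.970), and Nr4a3 did not exceed 0.355 CPM.

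Srf, the transcription factor on which Fos and Egr1 induction rests, had the smallest standard error of the members. Srf (ENSMUSG00000015605, chr17:46546839-46556162, minus strand) stood at 159, 152 and 150 against 191 and 188 CPM. The controls lay above all mutant libraries by more than either group's spread, 189 ± 2.1 (SD, n = 2) against 154 ± 4.80 CPM (SD, n = 3), yet the log2 fold change of -0.30 (SE 0.109, 95% interval -0.53 to -0.07) did not pass (limma adjusted p = 0.0935). It lay between -0.32 and -0.15 in all 15 fits, called in none. The gene overlaps a microRNA gene on its own strand and a predicted gene on the other, and the strand setting of the counting is not given in the sources used here.

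**Figure D2:**
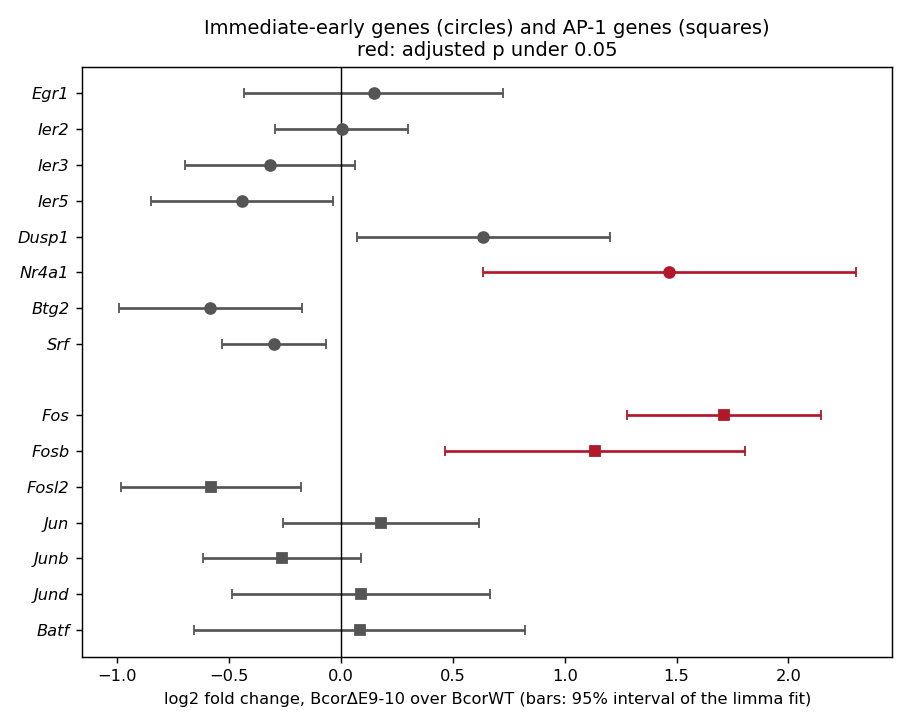
Log2 fold change of BcorΔE9-10 over BcorWT (horizontal axis) of the 8 tested immediate-early genes (circles) and 7 tested AP-1 genes (squares); bars are 95% intervals of the limma fit and red marks an adjusted p under 0.05. Nr4a1, Fos and Fosb are red, and the interval of Nr4a1 is the only 1 among the members that reaches the interval of Fos.

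The members were then set against Fos, a subunit of AP-1 whose higher level here was known when they were chosen. Fos stood at 334, 333 and 209 against 107.5 and 69.6 CPM, a log2 fold change of 1.71 (SE 0.205, 95% interval 1.28 to 2.15, limma adjusted p = 9.78e-05), and was called in all 15 fits (1.41 to 2.02). For 7 of the 8 tested members the upper 95% limit of the log2 fold change lay below the lower limit of Fos, Nr4a1 being the exception. The same held for 82.2% of the 11765 other tested genes, so the count says little about the members.

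The level of each member was next taken relative to Fos, as log2 CPM of the member minus log2 CPM of Fos in the same library. Ier3 minus Fos was -2.65, -2.73 and -1.87 in BcorΔE9-10 libraries and -0.32 and -0.43 in BcorWT libraries. Btg2 minus Fos was -2.93, -2.90 and -2.51 against -0.40 and -0.56. Since Fos itself differed by 1.72 in log2 CPM, a gene with equal group means would lie at -1.72 on this scale, and the median of all other tested genes was -1.72. In 7 members every mutant library lay below both controls, with differences between the group means of -1.55 for Egr1, -1.72 for Ier2, -2.04 for Ier3, -2.16 for Ier5, -1.08 for Dusp1, -2.30 for Btg2 and -2.02 for Srf. This was so for 87.5% of all other tested genes as well, so the pattern restates the rise of Fos. Each of the 7 differences had an exact two-sided permutation p of 0.2 (adjusted 0.229), which is the smallest that the 10 regroupings of 3 against 2 libraries can give, so the design could not reach 0.05. Nr4a1 minus Fos overlapped between the groups, with a difference of -0.30 (exact permutation p = 0.8).

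**Figure D3:**
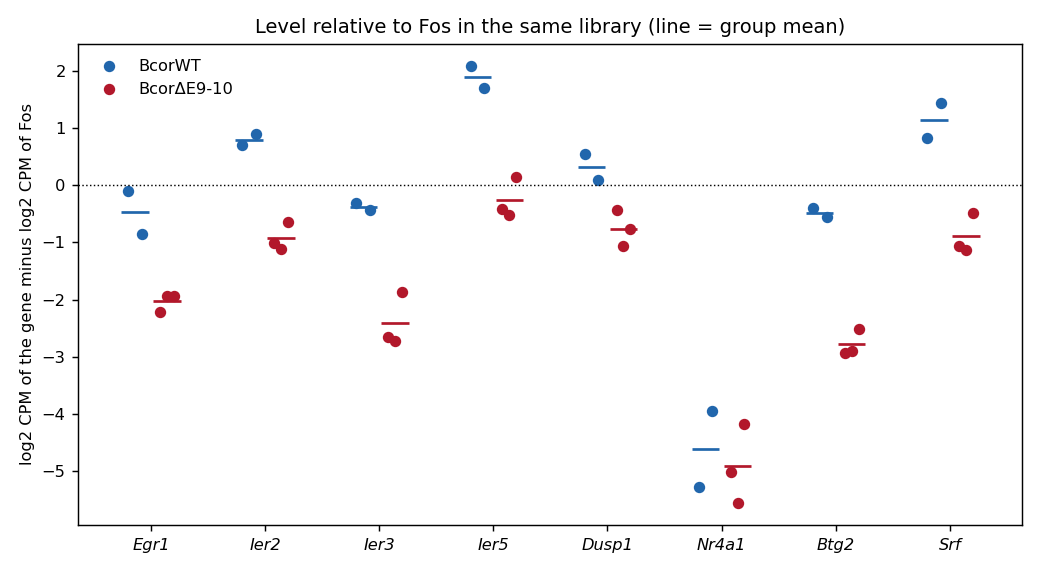
Log2 CPM of each tested immediate-early gene minus log2 CPM of Fos in the same library (vertical axis), with points for libraries and lines for group means. The 3 BcorΔE9-10 points lie below both BcorWT points in 7 of the 8 genes, and overlap them in Nr4a1, where 87.5% of all other tested genes also lie below.

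The control libraries differed widely in the members. BcorWT library 1 exceeded BcorWT library 2 in 7 of 8 tested members, by 2.60-fold in Egr1, 2.11-fold in Dusp1, 2.01-fold in Ier5, 1.72-fold in Btg2, 1.67-fold in Ier3, 1.35-fold in Ier2 and 1.02-fold in Srf. The excess was over 1.5-fold in 5 members (62.5%), against 12.1% of all tested genes and 2.40% of the 3795 whose log2 CPM averaged 5 or more. The median difference was 0.76 on the log2 scale in the members and -0.026 over all tested genes. This sets 1 library against another and has no replicate check.

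The AP-1 genes did the same, with BcorWT library 1 over 1.5-fold above library 2 in 7 of 7 tested genes (median log2 difference 0.68), Fos by 1.54-fold and Fosb by 2.61-fold. Of 31 other tested immediate-early genes, 25 were higher in library 1 and 11 by over 1.5-fold, while of 13 SRF and EGR cofactors and kinases 3 were higher and 0 by that much. As a result the median log2 fold change of the members was 0.14 without BcorWT library 1 and -0.42 without BcorWT library 2.

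**Figure D4:**
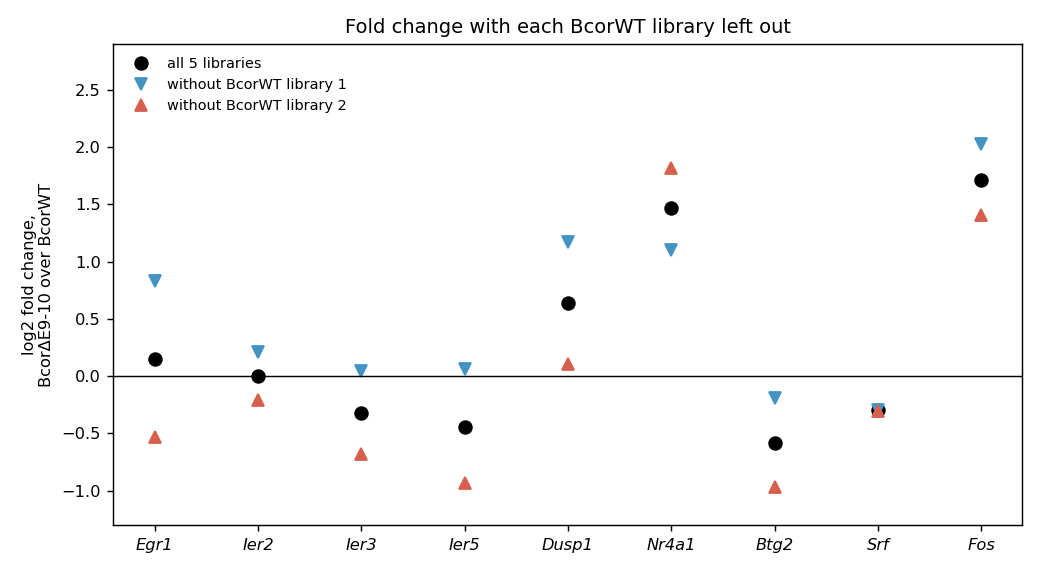
Log2 fold change of BcorΔE9-10 over BcorWT (vertical axis) of the 8 tested immediate-early genes and of Fos with all 5 libraries (circles), without BcorWT library 1 (downward triangles) and without BcorWT library 2 (upward triangles). Egr1, Ier2, Ier3 and Ier5 change sign between the settings, while Nr4a1, Srf, Btg2, Dusp1 and Fos keep theirs.

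Values of other gene lists also differed between the controls, where 47.6% of all tested genes were higher in BcorWT library 1. Of 12 heat shock genes, which respond to stress during handling, 8 were higher in BcorWT library 1 than in library 2, and their summed level was 5471 and 4343 CPM against 3194 to 3708 CPM in BcorΔE9-10 libraries. Of 10 mature neutrophil markers, 9 were higher in library 1, among them Mmp8 (804 against 277 CPM), Mmp9 (1400 against 661 CPM) and Retnlg (830 against 260 CPM). B cell markers were higher in library 1 in 5 of 5 tested genes, all by over 1.5-fold (summed level 13.3 and 7.56 CPM), basophil, mast cell or eosinophil markers in 8 of 10, and erythroid markers in 0 of 6. The summed neutrophil level was 225907 and 213806 CPM in BcorWT libraries and 147813 to 171779 CPM in BcorΔE9-10 libraries. Of the 10, 5 were called lower and 0 higher (6 and 1 at an unadjusted p under 0.05). Camp went the other way, at 22737 to 26916 CPM in BcorΔE9-10 libraries against 18448 and 23816 CPM (log2 fold change 0.25). The 10 monocyte or macrophage markers summed to 214 and 194 CPM against 161 to 202 CPM with 0 of 7 tested called by limma (1 at an unadjusted p under 0.05), and C1qb was at 0 in all but BcorWT library 2. Of the other marker lists, 7 of 10 basophil, mast cell or eosinophil genes were called lower and 1 higher (452 to 621 against 1390 and 1084 CPM), and 1 of 6 tested erythroid genes was called higher (65.4 to 260 against 24.4 and 67.0 CPM, all 6 at an unadjusted p under 0.05). In the stem cell, B cell, T or NK cell, megakaryocyte and stromal or endothelial lists 0 genes were called by limma, with 0, 1, 1, 1 and 1 at an unadjusted p under 0.05. In bulk samples, fewer cells of a type and less RNA per cell cannot be told apart. The study depleted lineage-positive cells and sorted Lin- cells, a gate that should remove mature neutrophils, B cells and erythroid cells, and the part of handling or of any of these cell types in the members' levels was not tested.

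The wider immediate-early class was read against the same background, 6.02% of all tested genes called higher and 4.09% lower. Of the 7 tested AP-1 genes, Fos and Fosb were called higher and 0 lower (1 at an unadjusted p under 0.05, and 1 called lower by DESeq2, which did not call Fosb), with a median log2 fold change of 0.09. Fosb stood at 109, 81.6 and 53.3 against 56.8 and 21.8 CPM (1.14, limma adjusted p = 0.0312; DESeq2 adjusted p = 0.313). Of 40 other immediate-early genes listed, 31 were tested, 3 were called higher and 1 lower (6 and 6 at an unadjusted p under 0.05), and the median was -0.01. Without BcorWT library 2 this median was -0.18, and without BcorWT library 1 it was 0.18. The 3 called higher with all libraries were Tnfaip3, an inhibitor of NF-κB signalling (2.18, limma adjusted p = 0.0107), Klf6, a zinc finger factor (0.68, limma adjusted p = 0.0462), and Zfp36, whose protein binds AU-rich elements and promotes decay of the message (0.65, limma adjusted p = 0.0189). Correction for GC content ended the calls of Klf6 (0.38, limma adjusted p = 0.286) and Zfp36 (0.48, limma adjusted p = 0.0881), and Klf6 was also lost in DESeq2 (adjusted p = 0.258) and with RLE scaling (limma adjusted p = 0.0513). The gene called lower was Errfi1, an inhibitor of EGF receptor signalling, at 2 to 3 counts against 16 and 14 (-2.63, limma adjusted p = 0.0391).

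Genes upstream and downstream of SRF were read in the same way. Among the 13 tested cofactors and kinases, Elk4, an ETS partner of SRF, was called higher (0.63, limma adjusted p = 0.0275) and Mapk3, which encodes ERK1, lower (-0.57, limma adjusted p = 0.00204). Of 12 tested cytoskeletal targets of SRF, 4 were called lower and 0 higher by limma (7 and 0 at an unadjusted p under 0.05, and 4 and 0 called by edgeR), with a median of -0.33: Actb (-0.51), Flna (-0.59), Actg1 (-0.36) and Tagln2 (-0.35). With scaling by total counts, which moved the median of all genes to 0.15, 2 of these 4 were called, and 3 after GC correction, without Tagln2. Of the 30-base words in the Actb transcript end, 32.1% also occur in other genes, so its count is uncertain.

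Among the 12 heat shock genes 7 were called lower in BcorΔE9-10 libraries and 0 higher by limma (9 and 1 at an unadjusted p under 0.05, and 6 and 0 called by edgeR), with a median of -0.53. They were Hspb1 (-3.33), Hsph1 (-1.32), Hspa1b (-1.31), Hspa1a (-0.99), Dnajb1 (-0.76), Hspd1 (-0.58) and Hsp90aa1 (-0.49). Hspa1a (limma adjusted p = 0.0498) was not called by edgeR, by DESeq2 (adjusted p = 0.397), with total-count scaling or after GC correction, and Hspa1b not by DESeq2 (adjusted p = 0.195). In Hspb1, 31.7% of the words in the transcript end also occur in other genes. Without BcorWT library 1, which was the highest of the 5 libraries in Hspa1a, Hspa1b, Dnajb1, Hsp90aa1 and Hspb1, the list kept 2 calls. Over these 5 lists, 14 of the 19 calls were lost when 1 library was left out (10 without BcorΔE9-10 library 1, 9 without BcorWT library 1, 7 without BcorΔE9-10 library 2, 6 without BcorWT library 2 and 4 without BcorΔE9-10 library 3). The 5 that passed each time were Fos, Actb, Flna, Mapk3 and Hsph1.

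**Figure D5:**
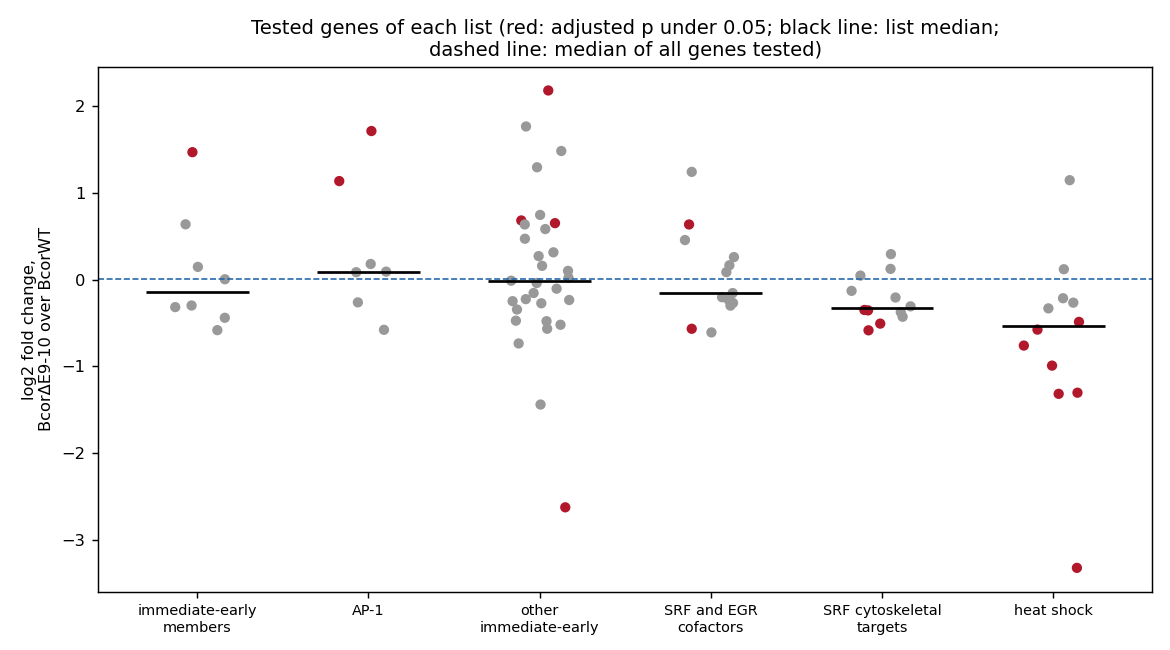
Log2 fold change of BcorΔE9-10 over BcorWT (vertical axis) of each tested gene in the 6 lists, with red for an adjusted p under 0.05, a black line at the list median and a dashed line at the median of all genes tested. The medians run from 0.09 in AP-1 genes and -0.15 in the members to -0.53 in heat shock genes.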

How the data were processed

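RNA from sorted KL cells was sequenced with the QuantSeq 3′ kit, which reads transcript ends, so that counts do not scale with transcript length. The authors removed low-quality reads, trimmed reads with cutadapt (version 1.7 in the submitters' processing notes), aligned them with HISAT2 to mm10 and counted reads per gene with featureCounts (Subread 1.5.0-p3). The deposited table gives unscaled whole-number counts for every gene in each library, and its exon length. Handling of multi-mapping reads and strand is not given in the sources used here. Of 52550 gene identifiers, 52403 were given a symbol, and 95.24% of these had the same start and end in GENCODE M21.

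Groups were taken from the sample labels. Low genes were removed by the filterByExpr function (edgeR 4.0.16, at a minimum count of 10 and a minimum total of 15), libraries were scaled by TMM, and voom values were tested in limma 3.58.1 (R 4.3.3), two-sided, with Benjamini-Hochberg adjustment over 11766 genes and genotype as the only term, since the study names limma. Alternatives were edgeR's quasi-likelihood test, DESeq2 (version 1.42.0), RLE or total-count scaling, no filter or at least 10 counts in every library, a replicate block, removal of a lowess trend (span 0.3) on GC content over the final 300 transcript bases, both together, and leaving out each library. A lone control left by this was assumed to vary like the other group. Exact permutation tests used SciPy (version 1.17.1). The procedures were tested on simulated data.

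The members and lists were chosen with earlier results of these data known. All members were named, with every called gene of 5 other lists and the 5 genes whose centred log2 CPM was closest to that of the member with the highest mean CPM. Markers of the KL gate and of 9 other cell types were read from the same fit. The labels do not say that libraries came from separate mice, so p-values measure only the spread between these libraries. Reads were not counted by molecular identifier, and limits from a count of 0 cover counting error only.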

Additional observations from a re-analysis of the deposited data

How the results depend on the processing

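The number of all genes called was 1189, and 1010 to 1454 in the other fits with all libraries (1407, with 1210 higher and 197 lower, under total-count scaling, which raised the median of all genes to 0.15), against 558 to 1200 with 1 library left out. The members called numbered 1 (where 10.1% of all genes were called), 2 with edgeR (11.2%), 2 with DESeq2 (10.9%) and 3 with no expression filter (6.65%). They numbered 4 under the replicate block (12.4%) and 4 under the block with GC correction (10.7%). With 1 BcorΔE9-10 library left out they numbered 0 to 1 (6.33% to 8.05%). Calls in the other lists numbered 19, and 9 to 24 with 1 library left out. The members' median log2 fold change lay between -0.17 and 0.0038 in fits with all libraries and between -0.42 and 0.14 with 1 left out. The members' median level had an SD of 0.72 (log2) between the 2 BcorWT libraries, the wider spread of the 2 groups. That SD holds the difference between the controls, so lying within it is a weak check. The median of member minus Fos stayed between -2.04 and -1.60 in every fit. The sign turned for Ier2 with edgeR (-0.0052), DESeq2 (-0.022) and RLE scaling (-0.014), and for Egr1 after GC correction (-0.13; -0.039 with the block). With 1 library left out, Egr1 ranged from -0.53 to 0.83, Ier2 from -0.21 to 0.21, Ier3 from -0.68 to 0.048 and Ier5 from -0.94 to 0.058. Of 375 comparisons of 27 single genes with an alternative, 294 kept direction and side of the threshold, 15 gained a call, 55 lost one and 11 changed sign. Apart from the libraries left out, the causes were not tested.

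Replicate numbers did not pair the libraries: the deviations of same-numbered libraries correlated at 0.057 and 0.067, and nothing in the labels ties them. Adding the replicate block gave 1454 called genes (1087 in common with the 1189), and among the members Ier5 (-0.45), Dusp1 (0.85) and Btg2 (-0.53) joined Nr4a1 (1.30). BcorΔE9-10 library 3 has no other library of its number, so in this fit it did not inform the fold changes or their spread. With that library left out and no block, 0 members were called. Depth limits Egr2 and Egr3, at 7 counts or fewer in each library, and with 2 controls that differ in these genes a small change in most members could not be resolved.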
